A study of Mus musculus with 32 samples.

Results

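A set of 9 genes that mark glutamatergic neurons was followed through the amygdala libraries of a mouse stress study. They are Slc17a7, Slc17a6 and Slc30a3, which encode vesicle transporters, the transcription factors Neurod2, Neurod6, Tbr1 and Tfap2d, and the cell surface proteins Nrn1 and Fibcd1. They were chosen by symbol as an identity set, and all 9 were found among the 25239 genes of both amygdala exon count tables. An excitatory neuron releases glutamate from vesicles that a vesicular glutamate transporter has filled, and most forebrain neurons of this kind use the product of Slc17a7 (VGLUT1) or of Slc17a6 (VGLUT2). VGLUT1 is typical of the cortex, the hippocampus and the cortex-like basolateral amygdala, and VGLUT2 of the thalamus, the hypothalamus and parts of the medial amygdala. The NeuroD factors and Tbr1 act in the developing cortex and its relatives, where they direct newborn cells to an excitatory fate, and many adult neurons keep expressing them.

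Wild-type mice received a stereotaxic injection into the amygdala 24 h before RNA was taken from the amygdala of both sides. The injection held 100 mM 4-thiouridine (4sU) in DMSO, or DMSO, so every mouse received DMSO. 4sU is a uridine analogue that enters newly made RNA and once alkylated, is copied as C in place of T (SLAM-seq). Unstressed mice (baseline) gave 5 libraries with 4sU and 4 with DMSO, acutely stressed mice gave 5 with each, and chronically stressed mice gave 4 with 4sU and 3 with DMSO. The sources used here give neither the stressors nor the age or sex of the mice. They do not say whether a replicate is 1 mouse, so the p-values speak only for the spread among these libraries. There was no uninjected group.

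Libraries held 16150316 to 21228741 exon counts. Levels are given as CPM, counts scaled to library size after TMM normalization, and, to compare genes, as CPM per kb of the deposited gene length. Log2 fold changes (± SE) and adjusted p-values come from edgeR's quasi-likelihood test over all genes tested, two-sided, and a gene is said to rise or fall when its adjusted p was under 0.05. The 10 baseline and acute 4sU libraries stood apart from the other 16. They had 37.05 to 39.69 reads in annotated 3′ UTR intervals per 100 exon counts, against 44.65 to 53.39 in the others (44.65 to 49.94 without acute DMSO library 2). The summed CPM of 14 oligodendrocyte and myelin genes split the same way, at 7077 to 10349 against 13650 to 29758. The comparisons that cross this division are chronic stress against either other state within 4sU mice, and 4sU against DMSO at baseline and after acute stress, and in those the division and the groups cannot be told apart. The labels' tissue term is brain, with amygdala in the protocols. GABAergic and pan-neuronal lists were detected throughout, and so were lists for striatal, thalamic and hypothalamic neurons and, in amounts that differed between libraries, choroid plexus. Whether amygdala cells express genes of the striatal, thalamic and hypothalamic lists was not tested. In such bulk RNA, fewer cells of a type and less RNA per cell cannot be told apart.

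In mm10, Slc17a7 lies on chromosome 7 from 45163921 to 45176139 and Slc17a6 on the same chromosome from 51621830 to 51671126. Slc30a3 is on chromosome 5 (31086106 to 31108244), Neurod2 on chromosome 11 (98325417 to 98329645) and Neurod6 on chromosome 6 (55677819 to 55681263). Tbr1 is on chromosome 2 (61804453 to 61814113), as is Fibcd1 (31813290 to 31846005), Tfap2d on chromosome 1 (19103022 to 19168587) and Nrn1 on chromosome 13 (36725622 to 36734477). RefSeq promoter windows of build GRCm38.p6, each running from 250 bases before a start site to 50 after it, were matched for 8 of the 9 genes, in 12 windows. The windows of Slc17a7, Neurod2 and Neurod6 are shown because these genes varied together most closely in the libraries, as described further on, and 1 window of Slc17a6 because that gene did not. Capitals mark E-boxes, the letters CANNTG, which reads the same on both strands and is the kind of site that NeuroD and other bHLH factors bind.
Slc17a7, chr7:45163671-45163970, plus strand: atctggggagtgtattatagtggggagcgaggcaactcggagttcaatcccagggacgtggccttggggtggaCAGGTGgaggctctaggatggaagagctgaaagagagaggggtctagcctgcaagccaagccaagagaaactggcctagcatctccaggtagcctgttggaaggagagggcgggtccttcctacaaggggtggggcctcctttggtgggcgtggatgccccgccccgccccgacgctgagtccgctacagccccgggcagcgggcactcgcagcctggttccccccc
Neurod2, chr11:98329596-98329895, minus strand: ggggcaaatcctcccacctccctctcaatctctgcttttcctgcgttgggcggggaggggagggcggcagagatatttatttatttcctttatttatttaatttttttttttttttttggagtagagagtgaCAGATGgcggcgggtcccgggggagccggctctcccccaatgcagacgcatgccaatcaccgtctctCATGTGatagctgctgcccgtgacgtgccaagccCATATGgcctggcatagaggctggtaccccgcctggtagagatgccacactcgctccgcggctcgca
Neurod6, chr6:55681214-55681513, minus strand: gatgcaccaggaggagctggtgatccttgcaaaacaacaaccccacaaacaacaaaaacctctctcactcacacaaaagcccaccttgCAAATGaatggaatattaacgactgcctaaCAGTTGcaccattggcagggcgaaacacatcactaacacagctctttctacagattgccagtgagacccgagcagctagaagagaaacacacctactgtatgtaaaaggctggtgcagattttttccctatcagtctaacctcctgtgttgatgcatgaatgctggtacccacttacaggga
Slc17a6, chr7:51621580-51621879, plus strand: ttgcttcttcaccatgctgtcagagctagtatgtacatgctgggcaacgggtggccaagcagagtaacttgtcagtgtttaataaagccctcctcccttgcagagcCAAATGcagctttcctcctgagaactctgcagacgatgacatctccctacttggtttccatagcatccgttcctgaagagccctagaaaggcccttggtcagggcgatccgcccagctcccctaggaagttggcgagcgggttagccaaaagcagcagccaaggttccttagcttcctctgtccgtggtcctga
The window of Slc17a7 held 1 E-box, that of Neurod2 3, that of Neurod6 2 and that of Slc17a6 1. Among all 32851 windows of this length, 72.31% held at least 1. The NeuroD form, CAGATG or its reverse complement CATCTG, was present in 17.15% of all windows. Among the 12 windows of the 8 genes it was in 2, that of Neurod2 and a second window of Slc17a6. CAGCTG, also an E-box, was in 16.3% of all windows and in none of these. A T-box core, GGTGTGA or its reverse complement TCACACC, was in 3.979% of all windows. Among the 12 windows it was in 2, 1 of Slc30a3 and 1 of Tfap2d.

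Per kb, the mean over the 26 libraries ordered the genes as Slc17a7 (157), Nrn1 (33.1), Neurod6 (19.0), Fibcd1 (13.1), Neurod2 (11.2), Slc30a3 (10.7), Slc17a6 (6.57), Tbr1 (4.45) and Tfap2d (0.291 CPM per kb). Slc17a7 was the highest of the 9 in 25 of 26 libraries, Nrn1 stood second in 26 and Tfap2d last in 26. The genes from Neurod6 to Slc30a3 overlapped widely, each spanning at least 2.02 to 24.5 CPM per kb, so their order is not resolved by the spread. Tfap2d rested on 0 to 44 counts a library and Slc17a7 on 263 to 16437.

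**Figure D1:**
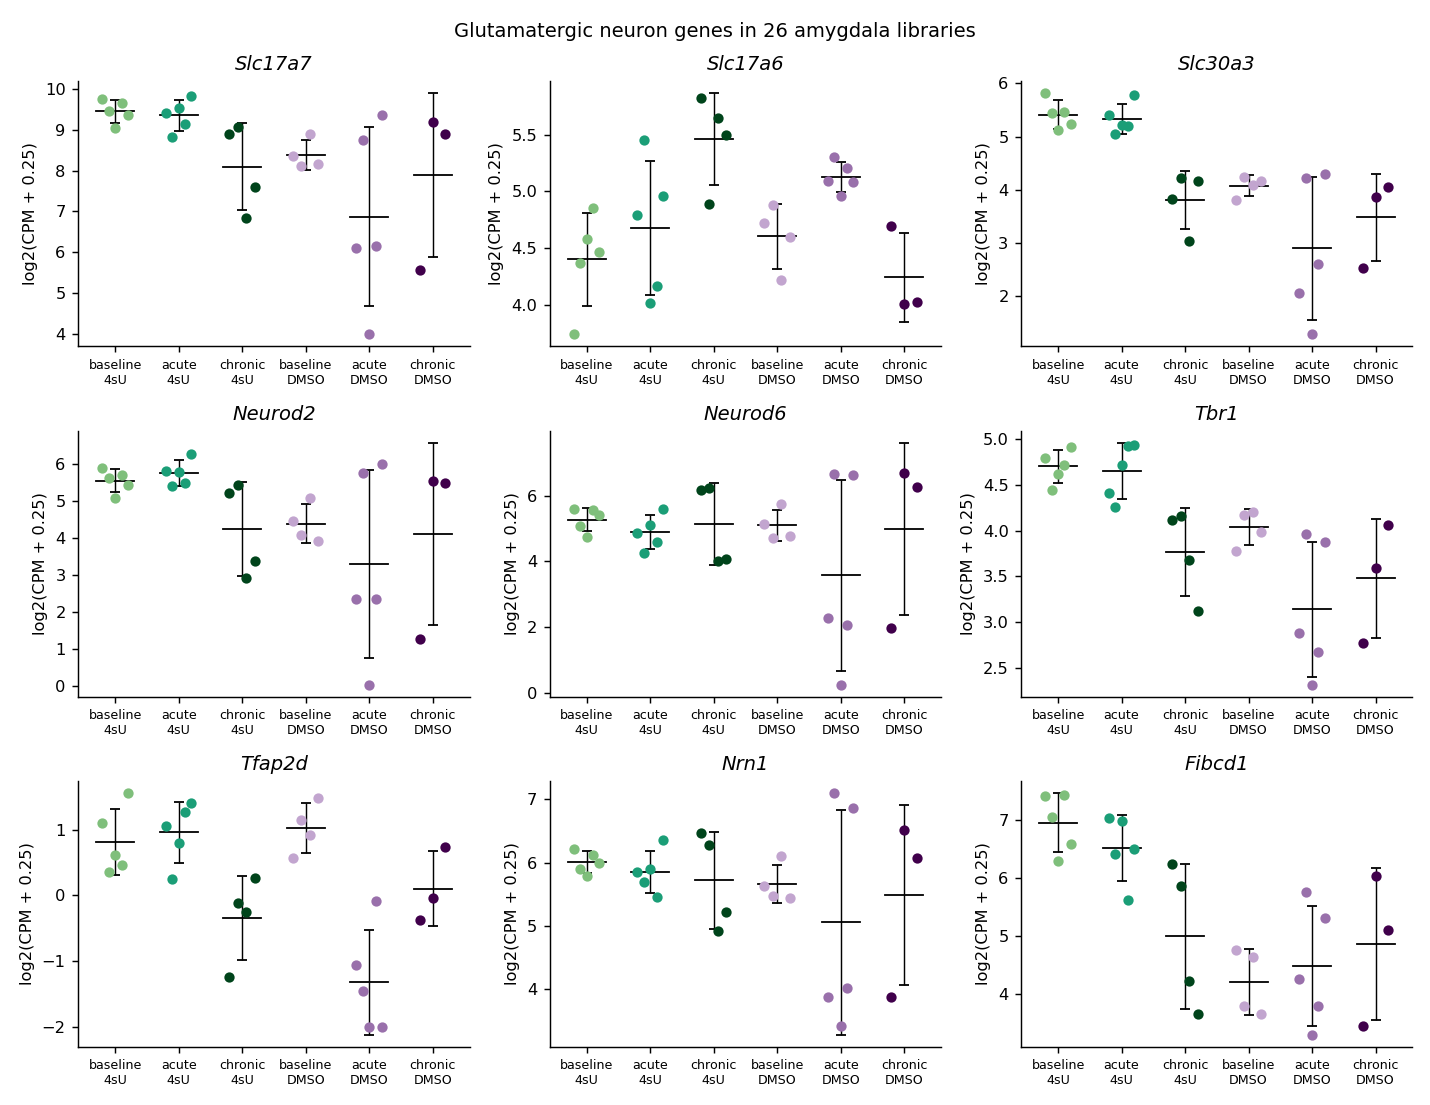
Level of each gene in every library, as log2(CPM + 0.25) on the vertical axis with its own range in each panel. Points are libraries of the 6 groups, horizontal lines are group means and bars 1 SD; the acute DMSO and chronic DMSO libraries spread over several log2 units for Slc17a7, Neurod2, Neurod6 and Nrn1, while Slc17a6 stayed between 13.2 and 56.2 CPM.

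Slc17a7, the vesicular transporter of cortical and basolateral amygdala neurons, had 867, 704, 526, 813 and 662 CPM in the baseline 4sU libraries 1 to 5 and 686, 455, 743, 571 and 915 CPM in the acute 4sU libraries. In DMSO mice it had 326, 276, 481 and 285 CPM at baseline and 68.1, 431, 15.6, 71.1 and 661 CPM after acute stress. After chronic stress it had 482, 535, 113 and 193 CPM in 4sU mice and 47.1, 583 and 482 CPM in DMSO mice. Both unstressed groups were compact and did not overlap, whereas the acute DMSO group joined 3 low libraries and 2 high ones, a 42.5-fold range. Chronic DMSO library 1 was likewise far under its 2 companions, and chronic 4sU libraries 3 and 4 under theirs.

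Lists for other cells also differed between these libraries. In acute DMSO libraries 1 to 5 the summed CPM of 12 pan-neuronal genes was 7167, 8478, 7094, 7639 and 8364, lower in the 3 libraries with little Slc17a7. That of 14 GABAergic genes was 2854, 2603, 3167, 3031 and 2464 CPM, higher in those 3, while the sum of the 9 genes ran from 75.1 to 1047 CPM. The mean log2 CPM of the GABAergic genes did not split this way, at 5.793, 5.929, 5.786, 5.896 and 5.673. Chronic DMSO library 1 had the lowest pan-neuronal sum of the 26 libraries, 6915 CPM against 8054 and 7924 in its companions. Acute DMSO libraries 1 to 5 had 7318, 1863, 3216, 5301 and 1756 CPM of 14 striatal medium spiny neuron genes. Their choroid plexus and ependymal sums were 47.7, 5877, 1363, 416 and 2901 CPM, with up to 2 of those 14 genes at 0, so within this group the libraries low in Slc17a7 were high in striatal and low in choroid genes. Chronic 4sU library 3, with the lowest Slc17a7 of its group, also had the highest striatal sum of its group (5435 CPM) and the lowest choroid sum (436 CPM). Chronic 4sU library 4, also low in Slc17a7, had the second highest striatal sum (4377 CPM) but the highest choroid sum of its group (3312 CPM). Chronic DMSO library 1 had 4877 CPM of striatal genes against 2591 and 2800 in its companions, and 3634 CPM of choroid genes against 5544 and 4468. The part of other tissue in the level of these genes was not tested.

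Slc17a6, the VGLUT2 transporter, had 13.2, 20.4, 23.7, 28.7 and 21.8 CPM in baseline 4sU and 27.5, 43.5, 15.97, 17.8 and 30.9 CPM in acute 4sU libraries. Chronic 4sU libraries had 56.2, 29.5, 49.7 and 44.9 CPM, all above every baseline library of either injection. The margin over baseline DMSO library 2 was small. Scaled to the total count without TMM, that library had 30.46 CPM and chronic 4sU library 2 had 29.97 CPM, the reverse order. DMSO libraries had 26.1, 29.3, 18.4 and 23.96 CPM at baseline, 33.8, 39.1, 30.9, 36.8 and 33.6 CPM after acute and 25.7, 15.9 and 16.1 CPM after chronic stress. The acute DMSO libraries that differed so widely in Slc17a7 lay within a 1.27-fold range for Slc17a6. Acute DMSO library 3 was the one library of 26 in which Slc17a6 exceeded Slc17a7 per kb.

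Slc30a3 encodes ZnT3, which loads zinc into the vesicles of a subset of glutamatergic terminals. It had 56.2, 43.3, 34.5, 44.1 and 37.4 CPM in baseline 4sU and 41.98, 33.1, 36.8, 36.4 and 54.9 CPM in acute 4sU libraries. The other 4 groups had 13.8, 18.8, 16.9 and 17.7 CPM (baseline DMSO), 3.92, 18.5, 2.19, 5.87 and 19.6 CPM (acute DMSO), 13.96, 18.3, 7.93 and 17.8 CPM (chronic 4sU) and 5.56, 14.3 and 16.3 CPM (chronic DMSO). Every baseline and acute 4sU library was above every other library, the same split as that of the 3′ UTR reads. Within the acute DMSO group, the 3 libraries low in Slc17a7 were again the low ones.

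Neurod2, a bHLH factor of maturing excitatory neurons, ran from 33.3 to 58.7 CPM in baseline 4sU, from 41.8 to 76.7 in acute 4sU and from 14.9 to 33.7 in baseline DMSO libraries. Acute DMSO libraries had 4.79, 53.6, 0.769, 4.83 and 63.96 CPM, an 83.2-fold range. Its relative Neurod6 had 4.61, 100.7, 0.947, 3.96 and 97.9 CPM in the same libraries, a 106-fold range, beside 26.1 to 53.1 CPM at baseline in DMSO mice. Both genes were low in acute DMSO libraries 1, 3 and 4 and high in 2 and 5. After chronic stress Neurod6 had 71.2, 75.2, 15.97 and 16.6 CPM in 4sU mice and 3.71, 103 and 77.05 CPM in DMSO mice, and Neurod2 36.7, 42.9, 7.28 and 10.2 and 2.14, 46.4 and 44.6 CPM. The chronic libraries with little Slc17a7 were those with little of both.

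Tbr1, a T-box factor of early born cortical neurons and of the amygdala, had 27.6, 21.6, 24.4, 26.1 and 30.1 CPM in baseline 4sU and 21.1, 18.8, 26.1, 30.1 and 30.5 CPM in acute 4sU libraries. It had 13.5, 17.8, 18.2 and 15.6 CPM in baseline DMSO and 7.09, 15.3, 4.73, 6.11 and 14.4 CPM in acute DMSO libraries. After chronic stress it had 17.1, 17.6, 12.5 and 8.45 CPM with 4sU and 6.6, 11.8 and 16.5 CPM with DMSO. The baseline and acute 4sU libraries were, as for Slc30a3, all above the other 16, but for Tbr1 the margin was small. Scaled to the total count without TMM, acute 4sU library 2 had 18.35 CPM of Tbr1. That was below baseline DMSO libraries 2 and 3, at 18.53 and 18.55 CPM. The range of Tbr1 within the acute DMSO group, 3.24-fold, was smaller than that of the NeuroD genes.

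Tfap2d, a factor of the AP-2 family, was near the detection limit. Its counts were 32, 17, 22, 19 and 44 in baseline 4sU, 34, 18, 31, 41 and 43 in acute 4sU and 3, 11, 10 and 16 in chronic 4sU libraries. In DMSO mice they were 22, 36, 29 and 42 at baseline, 4, 2, 0, 12 and 0 after acute and 9, 13 and 25 after chronic stress. All acute DMSO libraries were below all baseline libraries, and the 2 at 0 were one low in Slc17a7 and one high in it.

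Nrn1 encodes neuritin, a membrane-anchored protein induced by neuronal activity. It ran from 54.8 to 74.6 CPM in baseline 4sU, 43.6 to 81.5 in acute 4sU and 43.4 to 68.4 in baseline DMSO libraries. In acute DMSO libraries it had 14.5, 137, 10.4, 15.99 and 117 CPM, in chronic 4sU 87.98, 77.1, 30.1 and 37.2 and in chronic DMSO 14.4, 91.4 and 67.4 CPM. The pattern of low and high libraries was that of Slc17a7, and the highest Nrn1 values of the study were in the 2 high acute DMSO libraries.

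Fibcd1, a transmembrane receptor for acetylated groups that is enriched in pyramidal cells of the dorsal hippocampus, had 171, 133, 78.2, 173 and 95.7 CPM in baseline 4sU libraries. It had 26.8, 13.6, 24.6 and 12.3 CPM in baseline DMSO libraries. All 5 of the first group were above all 4 of the second by a wide margin. Acute libraries had 131, 85.7, 127, 49.1 and 90.8 CPM with 4sU and 18.8, 54.2, 9.58, 13.6 and 39.4 CPM with DMSO. Chronic libraries had 75.7, 57.9, 18.4 and 12.4 CPM with 4sU and 10.7, 65.5 and 34.1 CPM with DMSO. The chronic groups overlapped with each other and with the acute DMSO group.

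Acute stress was set against baseline to see which transcripts follow a brief stressor, and neither group of 4sU mice crosses the library division. No member of the set rose or fell in 4sU mice. edgeR called 0 of 9, where 0.269% of all 15995 genes tested were called. None of the 9 had an unadjusted p under 0.05, where 652 of all genes did. DESeq2 called 0 of the 9 and 95 of all genes. Log2 fold changes were -0.08 ± 0.60 for Slc17a7, -0.08 ± 0.36 for Slc30a3, -0.03 ± 0.23 for Tbr1 and -0.42 ± 0.38 for Fibcd1. Slc17a6 had 0.33 ± 0.23. Of 24 other pallial glutamatergic genes tested, 0 were called, with a median log2 fold change of -0.04.

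In DMSO mice acute stress came with 1 fall among the 9, where 2.51% of all genes were called. That count, 402 genes, ran from 143 to 906 when 1 library was left out, lowest without library 1 of the baseline DMSO group and highest when library 2 of the acute DMSO group was omitted. Tfap2d fell by 3.09 ± 0.57 on the log2 scale (adjusted p = 0.0077), on the counts above. A fit of only the 2 groups gave -3.12 with an adjusted p of 0.14 for it, and called 4 of 15630 genes in all. Tbr1 had -0.76 ± 0.26 (adjusted p = 0.14), and without acute DMSO library 2 or 5, the libraries high in Slc17a7, it had -0.98 in each case (adjusted p = 0.035 and 0.033). Slc17a7 had -0.45 ± 0.63, Slc30a3 -0.73 ± 0.41, Neurod2 0.25 ± 0.69, Neurod6 0.25 ± 0.79 and Nrn1 0.21 ± 0.55. Slc17a6 had 0.53 ± 0.24 (adjusted p = 0.28). Of 24 other pallial genes 1 fell, Otof, which encodes a calcium sensor of vesicle release, by 0.79 ± 0.15 (adjusted p = 0.0086). In the same comparison 9 of 14 oligodendrocyte genes rose (Mal by 0.71 ± 0.13, adjusted p = 0.0073), the median of the choroid plexus list was -0.83 with 0 of 14 called, and the part of these cells in the fall of Tfap2d was not tested.

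Averaged over both injections, Tfap2d had -1.48 ± 0.36 (adjusted p = 0.033), and 2.39% of all genes were called. That call was lost in 9 of the 19 fits that left out 1 library, in which its adjusted p lay between 0.0030 and 0.076 over all 19. The difference between injections, 4sU minus DMSO, was 3.23 ± 0.72 for Tfap2d (adjusted p = 0.25). edgeR called 0 of the 9 for that difference and 0% of all genes. Of the 9, 1 (Tfap2d) had an unadjusted p under 0.05, as did 916 of all genes, and DESeq2 called 1 of the 9, also Tfap2d, and 21 of all genes.

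Chronic stress was set against baseline for the same question about a lasting stressor. In 4sU mice 4 of the 9 fell and 1 rose. Slc30a3 fell by 1.59 ± 0.28 (adjusted p = 0.00029), Tbr1 by 0.92 ± 0.23 (adjusted p = 0.0035), Tfap2d by 1.44 ± 0.42 (adjusted p = 0.0065) and Fibcd1 by 1.68 ± 0.58 (adjusted p = 0.024). Slc17a6 rose by 1.04 ± 0.23 (adjusted p = 0.0017), with all 4 chronic libraries above all 5 baseline ones. Slc17a7 had -1.13 ± 0.59 (adjusted p = 0.12), Neurod2 -0.97 ± 0.65, Neurod6 0.17 ± 0.68 and Nrn1 -0.17 ± 0.43. This comparison crosses the library division, and 56.5% of all 16096 genes tested were called in it, about the share seen among the 9. The call of Fibcd1 was lost without chronic 4sU library 3 or 4, with an adjusted p of up to 0.068.

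Other genes moved in the same comparison. Of 24 other pallial glutamatergic genes 8 fell and 0 rose, with a median of -0.45 beside -0.02 for all genes. All 14 oligodendrocyte genes rose, with a median of 1.52. Of 18 genes listed for thalamic and hypothalamic neurons 9 rose and 1 fell, with a median of 0.94. Their summed CPM was 131 to 258 in chronic and 95.0 to 182 in baseline 4sU libraries. Of 14 GABAergic genes 2 rose and 7 fell. The part of these cells in the changes of the 9 was not tested.

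In DMSO mice, which do not cross the division, edgeR called 0 of the 9 after chronic stress and 0% of all genes. Among the 9, 1 (Tfap2d, -1.05 ± 0.44) had an unadjusted p under 0.05, as did 913 of all genes, and DESeq2 called 0 of the 9 and 11 of all genes. Slc17a6 had -0.34 ± 0.28, Slc30a3 -0.47 ± 0.33, Tbr1 -0.48 ± 0.27 and Fibcd1 0.93 ± 0.66. The difference between injections, again 4sU minus DMSO, passed the test for 2 genes, where 38.0% of all genes were called. It was 1.38 ± 0.36 for Slc17a6 (adjusted p = 0.0084) and -2.61 ± 0.87 for Fibcd1 (adjusted p = 0.031). For Slc17a6 the call was kept in each of 16 fits without 1 library, and for Fibcd1 it was lost in 7 of 16. Without chronic DMSO library 1, which was low in Slc17a7, 5 of the 9 were called for the difference, adding Slc17a7, Slc30a3 and Neurod2. The 38.0% of all genes belongs to the fit that kept this library, and the share without it is not reported here.

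Chronic and acute stress were compared directly in a fit of all 6 groups. In 4sU mice Slc30a3 fell by 1.49 ± 0.43 (adjusted p = 0.0064), Tfap2d by 1.56 ± 0.51 (adjusted p = 0.014) and Tbr1 by 0.86 ± 0.29 (adjusted p = 0.016). Slc17a6 rose by 0.73 ± 0.24 (adjusted p = 0.016), and the count of 4 among 9 stands beside 47.2% of all 16310 genes tested. The calls of Slc17a6 and Tfap2d were lost without chronic 4sU library 1 (adjusted p = 0.063 and 0.058), and that of Tbr1 without library 4 (adjusted p = 0.067). With 3′ UTR reads the call of Tbr1 was also lost (-0.54, adjusted p = 0.094), and Fibcd1 was called (-1.40, adjusted p = 0.045). A fit of only the 2 groups lost the call of Slc17a6 (adjusted p = 0.077). The shares of all genes in these fits are not reported here. In DMSO mice edgeR called 0 of the 9 and 1.78% of all genes. DESeq2 called 2 of the 9 there and 545 of all genes. The same 2 had an unadjusted p under 0.05 in edgeR, as did 2215 of all genes. They were Slc17a6 with -0.86 ± 0.28 and Tfap2d with 2.06 ± 0.66.

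The injected agent was compared within each state. At baseline 3 of the 9 were higher with 4sU than with DMSO, where 41.9% of all genes were called. Fibcd1 was higher by 2.76 ± 0.45 (adjusted p = 7.9e-05), the largest difference of the 9 in that comparison, Slc30a3 by 1.37 ± 0.41 (adjusted p = 0.011) and Tbr1 by 0.68 ± 0.26 (adjusted p = 0.038). The call of Tbr1 was lost in 8 of 19 fits without 1 library, and with 3′ UTR reads (0.48, adjusted p = 0.12). It was also lost without the filter, with a replicate block and with all 6 groups in a fit (adjusted p = 0.059 to 0.072). Slc17a7 had 1.07 ± 0.65 (adjusted p = 0.20), although its 2 groups did not overlap, and a fit of only those groups called it and Neurod2 too (adjusted p = 0.0031 and 0.0083). The 41.9% of all genes is from the fit of 4 groups, and the share in the fit of 2 groups is not reported here.

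After acute stress 4 of the 9 were higher with 4sU, where 48.3% of all genes were called. Tfap2d was higher by 3.04 ± 0.55 (adjusted p = 0.00016), Slc30a3 by 2.01 ± 0.39 (adjusted p = 0.00030), Fibcd1 by 1.83 ± 0.40 (adjusted p = 0.00090) and Tbr1 by 1.40 ± 0.25 (adjusted p = 0.00010). Slc17a7 had 1.44 ± 0.61 (adjusted p = 0.059), and without acute DMSO library 5 it had 2.21 (adjusted p = 0.0042), as Neurod2 had 1.78 (adjusted p = 0.029). Both states cross the library division. In both, 7 of 14 GABAergic genes were also higher with 4sU and 2 lower (medians of 0.38 and 0.35), and 13 and 14 of 14 oligodendrocyte genes were lower (medians of -1.14 and -1.68), and the part of these cells in the differences of the 9 was not tested. At baseline and after acute stress 5 and 8 of 24 other pallial genes were higher with 4sU and 2 lower in each, and Slc17a8, the third vesicular glutamate transporter gene, was lower by 0.82 ± 0.16 at baseline (adjusted p = 0.00028). After chronic stress, where both groups lie on one side of the division, edgeR called 0 of the 9 and 0.137% of all genes. Of the 9, 1 (Slc17a6, 1.22 ± 0.28, adjusted p = 0.12) had an unadjusted p under 0.05, as did 1475 of all genes, and DESeq2 called 1 of the 9, the same gene, and 138 of all genes. All 4 chronic 4sU libraries had more Slc17a6 than all 3 chronic DMSO libraries.

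**Figure D2:**
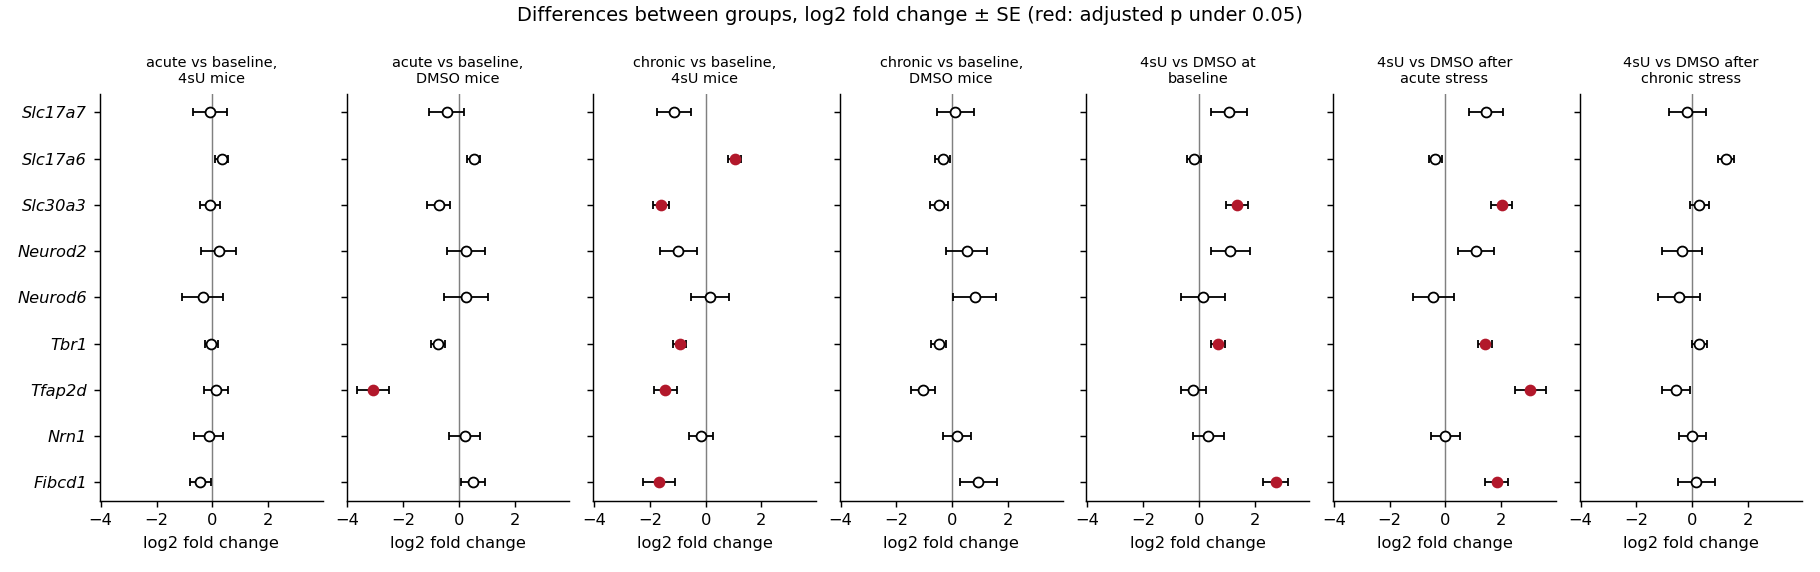
Log2 fold change of each gene in 7 comparisons, with bars of 1 SE. Red points passed an adjusted p of 0.05 in edgeR and open points did not; the red points lie in comparisons that cross the library division, except Tfap2d in DMSO mice after acute stress.

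Libraries of one group also differed from each other, and most of the 9 genes did so together. After group means were taken away, log2 CPM of Slc17a7 and Neurod2 had Pearson's r = 0.995 and Spearman's rho = 0.988 over the 26 libraries. For both values the permutation p within groups was 1e-05, the smallest that 100000 permutations can give, and 6e-05 after adjustment over 36 pairs of genes. Slc17a7 had r = 0.985 and rho = 0.989 with Neurod6 and r = 0.958 and rho = 0.977 with Nrn1, with the same permutation p and adjusted p. With Slc30a3 it had r = 0.922 and rho = 0.821 (permutation p = 0.00031 and 0.00099, adjusted p = 0.00093 and 0.0027).

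The relation of Slc17a7 with Tbr1 (r = 0.862, rho = 0.832, permutation p = 0.00089 and 0.00080) and with Fibcd1 (r = 0.823, rho = 0.854, permutation p = 0.00018 and 0.000090) was looser. Adjusted p-values were 0.0020 and 0.0024 for Tbr1 and 0.00065 and 0.00036 for Fibcd1. Over the 26 libraries Slc17a6 and Tfap2d stood outside this pattern. Slc17a7 had r = -0.22 and rho = -0.31 with Slc17a6 (permutation p = 0.18 and 0.14, adjusted p = 0.27 and 0.22). It had r = -0.0062 and rho = -0.036 with Tfap2d (permutation p = 0.99 and 0.88, adjusted p = 0.99 and 0.91). Without acute DMSO libraries 3 and 5, which lie farthest from the median of Slc17a7, r was 0.993 for Neurod2, 0.980 for Neurod6, 0.954 for Nrn1, 0.856 for Slc30a3, 0.806 for Tbr1, 0.840 for Fibcd1 and -0.34 for Slc17a6.

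Within the 10 compact baseline and acute 4sU libraries, Slc17a7 still varied with Neurod2 (r = 0.960, rho = 0.939), Neurod6 (r = 0.959, rho = 0.964), Slc30a3 (r = 0.873, rho = 0.915) and Nrn1 (r = 0.843, rho = 0.939). The largest adjusted permutation p among these 8 values was 0.028. With Tbr1 (r = 0.503, adjusted permutation p = 0.39), Fibcd1 (r = 0.615, adjusted permutation p = 0.23) and Tfap2d (r = 0.416, adjusted permutation p = 0.43) the relation did not pass there. Tfap2d did vary with Tbr1 in these 10 libraries (r = 0.809, rho = 0.879, adjusted permutation p = 0.020 and 0.0064). Over all 26 that pair had r = 0.043. In the other 16 libraries r with Slc17a7 was 0.996 for Neurod2, 0.899 for Tbr1, 0.861 for Fibcd1 and -0.29 for Slc17a6. The same libraries differed in striatal and choroid plexus genes, as given above.

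**Figure D3:**
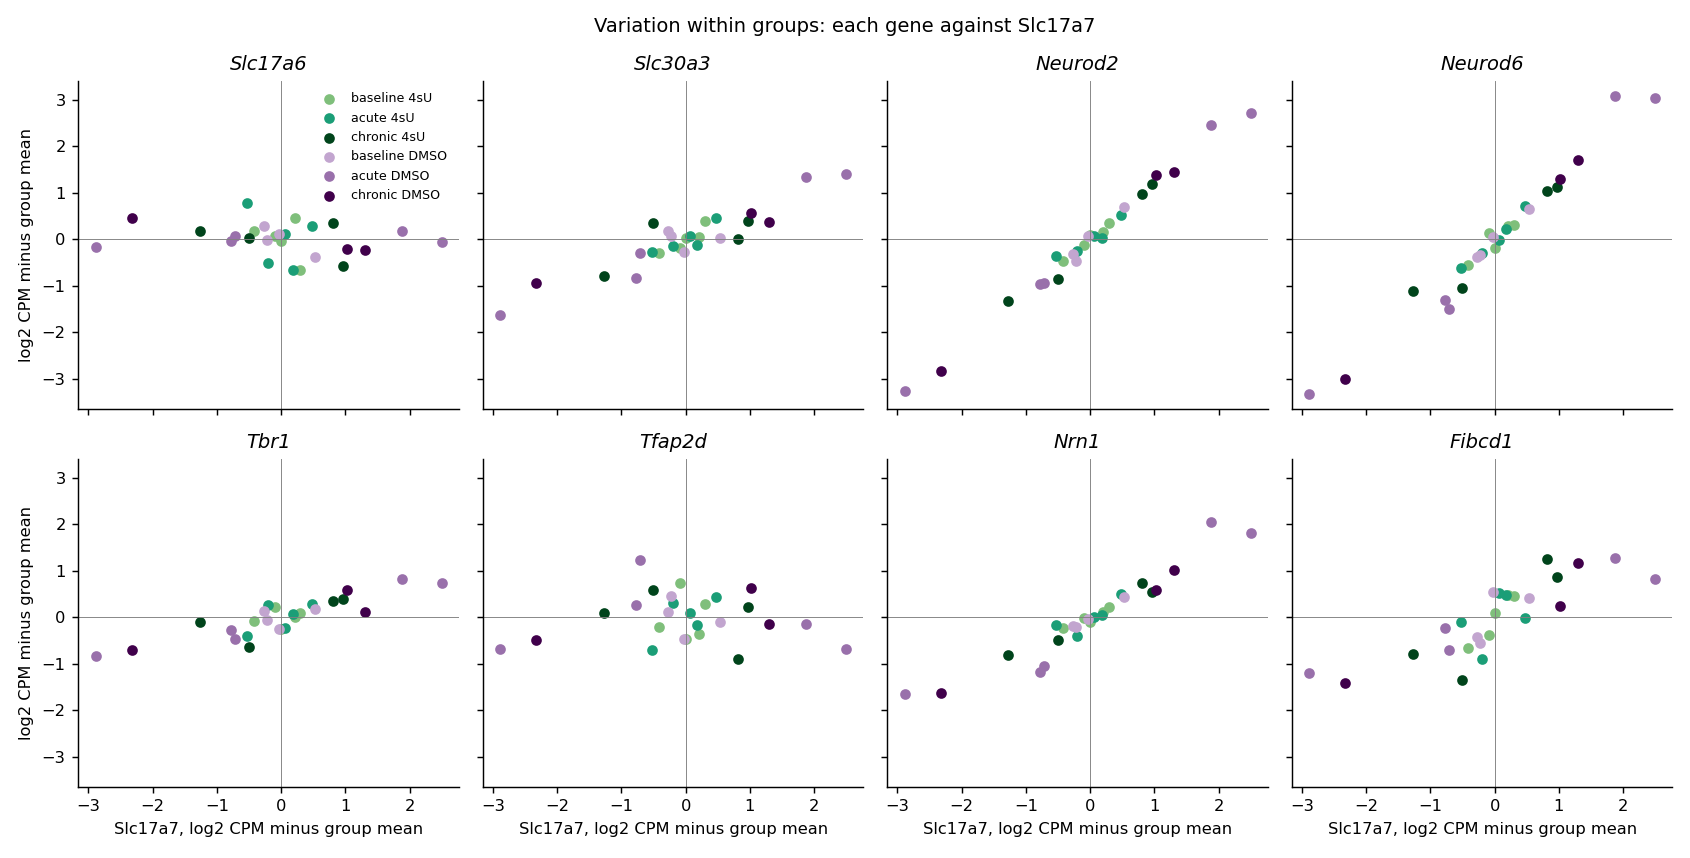
Each gene against Slc17a7 over the 26 libraries, both as log2(CPM + 0.25) minus the mean of the library's group. Neurod2, Neurod6 and Nrn1 lie along a line (r = 0.995, 0.985 and 0.958), Slc30a3, Tbr1 and Fibcd1 are looser or flatter, and Slc17a6 (r = -0.22) and Tfap2d (r = -0.0062) did not pass the test.

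Among 12250 genes with a mean of at least 5 CPM, the 6 most like Slc17a7 in this measure over the 26 libraries, outside the 9, were Rtn4rl2 (r = 0.992), Islr2 (r = 0.976), Fezf2 (r = 0.976), Dkk3 (r = 0.976), Plch2 (r = 0.974) and Sprn (r = 0.972). Rtn4rl2 encodes a Nogo receptor family protein and Fezf2 a transcription factor of deep-layer cortical projection neurons. The 6 most like Slc17a6 were Olfm2 (r = 0.818), Avp (r = 0.796), Nap1l5 (r = 0.793), Nxph4 (r = 0.774), Pmch (r = 0.738) and Zcchc12 (r = 0.734). Avp and Pmch encode the hypothalamic peptides vasopressin and melanin-concentrating hormone, and ranged from 0.222 to 37.7 and from 0 to 87.9 CPM. These genes were ranked from the same libraries, and the r values describe them without a test.

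The balance of the 2 NeuroD genes is given as a description, with no test, since the pair was chosen after its values were seen, out of 36 pairs among the 9. Per kb, Neurod2 over Neurod6 was 0.843, 0.995, 0.87, 0.761 and 0.69 in baseline 4sU libraries and 1.34, 1.52, 1.1, 1.3 and 1.09 in acute 4sU libraries. In DMSO mice it was 0.424, 0.436, 0.435 and 0.379 at baseline, 0.712, 0.365, 0.558, 0.838 and 0.448 after acute and 0.397, 0.309 and 0.397 after chronic stress, and in chronic 4sU mice 0.354, 0.392, 0.313 and 0.422. Neurod6 was the lower of the 2 in every acute 4sU library and in no other library. The log2 ratio was 0.33 ± 0.20 (SD, n = 5) in acute and -0.28 ± 0.20 (SD, n = 5) in baseline 4sU mice, a difference of 0.61. The difference was 0.54 to 0.68 without any 1 of the 10 libraries, and 0.52 with reads of the 3′ UTR intervals. In DMSO mice the acute minus baseline difference was 0.42, with overlapping groups. Larger differences lay along the library division, -1.17 for chronic minus baseline in 4sU mice and 0.98 and 1.17 for 4sU minus DMSO at baseline and after acute stress. Neither gene alone passed the test of acute stress.

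The balance of the 2 vesicular transporters was also taken per kb. Unlike that of the NeuroD genes it is given with a test, which was not among the planned ones. Slc17a7 over Slc17a6 per kb had medians of 45.4, 44.4 and 9.64 in baseline, acute and chronic 4sU libraries and of 18.3, 3.02 and 45.0 in the DMSO libraries of those states. In 4sU mice it was 12.8, 27.2, 3.42 and 6.44 after chronic stress and 98.7, 51.7, 33.2, 42.5 and 45.4 at baseline, without overlap. The log2 difference between them was -2.43 (exact permutation p = 0.016, two-sided, adjusted p = 0.074 over 7 contrasts of this ratio), which did not pass the adjustment. This contrast crosses the library division. In DMSO mice the acute libraries had 3.02, 16.5, 0.755, 2.9 and 29.5 and the log2 difference from baseline was -2.05 (exact permutation p = 0.13, adjusted p = 0.22). Among chronic DMSO libraries the ratio was 2.74, 55.1 and 44.96, with library 1 far below the others.

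**Figure D4:**
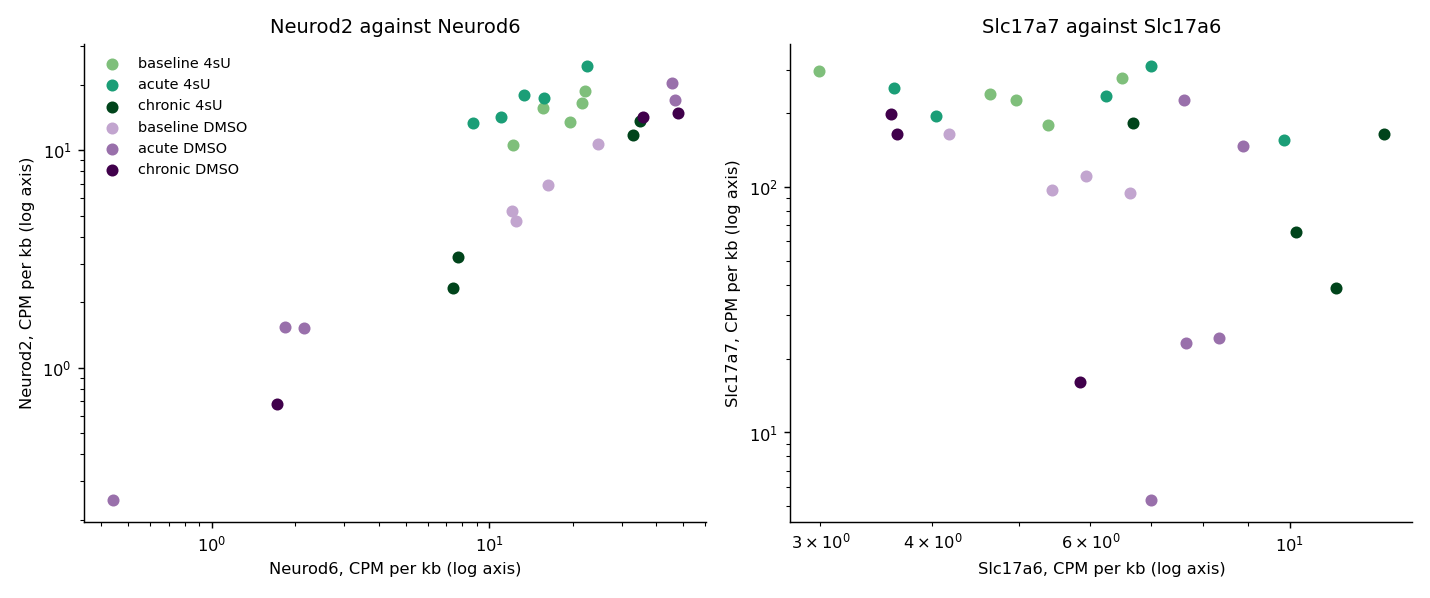
Neurod2 against Neurod6 (left) and Slc17a7 against Slc17a6 (right), each axis in CPM per kb on a log scale, 1 point per library. The acute 4sU libraries lie above the baseline 4sU libraries at the same Neurod6 level (ratios of 1.09 to 1.52 and 0.690 to 0.995), and Slc17a7 spans 5.29 to 311 CPM per kb while Slc17a6 spans 2.99 to 12.8.

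New RNA was read from T-to-C conversions in the 3′ UTR interval of each gene with the most covered T positions. Slc17a7 was the member with the most data, with 2046382 covered T positions and 1509 conversions over the 26 libraries, in the interval at positions 45175045 to 45176138 of chromosome 7. Its conversion was 0.115, 0.108, 0.106, 0.0827 and 0.0612% in baseline 4sU and 0.0344, 0.0427, 0.0364 and 0.0286% in baseline DMSO libraries. It was 0.146, 0.138, 0.126, 0.0911 and 0.0585% in acute 4sU and 0.0879, 0.0344, 0.0278, 0.0298 and 0.0253% in acute DMSO libraries. After chronic stress it was 0.0505, 0.13, 0.111 and 0.115% with 4sU and 0, 0.0296 and 0.0247% with DMSO. Labelled libraries were above unlabelled ones of the same state, except that acute DMSO library 1, with 12 conversions among 13657 positions, was above acute 4sU library 5.

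The excess with 4sU passed the test for Slc17a7 in all 3 states. It was 1.41 ± 0.26 on the log2 scale at baseline (adjusted p = 2.3e-06), 1.61 ± 0.28 after acute stress (adjusted p = 2.3e-07) and 2.02 ± 0.36 after chronic stress (adjusted p = 6.2e-07), and it was kept in each fit without 1 library. At baseline and after acute stress it was the 1 member called of 8 tested, where 7.43% and 11.7% of all genes tested for conversion were called. The rate over all intervals of a library was 0.0422% to 0.0546% in baseline 4sU and 0.0246% to 0.0318% in baseline DMSO libraries. Slc17a7 was above the rate of its own library in 14 of 14 4sU libraries, by a median of 2.00 times, and also in 10 of 12 DMSO libraries, by a median of 1.19 times over the 12.

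After chronic stress 4 of 8 members passed, where 13.9% of genes tested were called. Fibcd1 was higher with 4sU by 2.53 ± 0.73 (adjusted p = 0.0055), at 0.0673, 0.0813, 0.0993 and 0.149% against 0, 0.00817 and 0.0323%. Slc17a6 was higher by 2.59 ± 0.82 (adjusted p = 0.013), with 69 conversions among 70641 positions against 4 among 24570. Neurod2 was lower by 2.95 ± 1.01 (adjusted p = 0.027), with 3 conversions among 30640 positions against 29 among 31461, of which 21 were in chronic DMSO library 3. The call of Neurod2 was lost in 4 of the 16 fits without 1 library, those without chronic DMSO library 3 or chronic 4sU library 1, 2 or 4 (adjusted p of up to 0.48), and its log2 values over the 16 ran from -3.51 to -1.87. The call of Slc17a6 was also lost in 4 of those 16 fits and that of Fibcd1 without chronic DMSO library 2.

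No member tested passed the test of stress on conversion. For acute stress in 4sU mice edgeR called 0 of 8 and 0% of all genes. Among the 8, 1 (Slc17a6, -1.44 ± 0.67) had an unadjusted p under 0.05, as did 492 of all genes, and Slc17a7 had 0.16 ± 0.18. For chronic stress edgeR called 0 of 8 and 0.271% of all genes. Among the 8, 1 (Fibcd1, 0.99 ± 0.42) had an unadjusted p under 0.05, as did 620 of all genes, and Slc17a7 had -0.34 ± 0.21. DESeq2 was not run on conversions. Slc30a3, Neurod6, Tbr1 and Nrn1 had 36 to 124 conversions each over all 26 libraries, and the SEs of their log2 changes with stress were 0.70 to 1.33. Tfap2d, with 1 conversion among 13427 positions, was not tested.

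**Figure D5:**
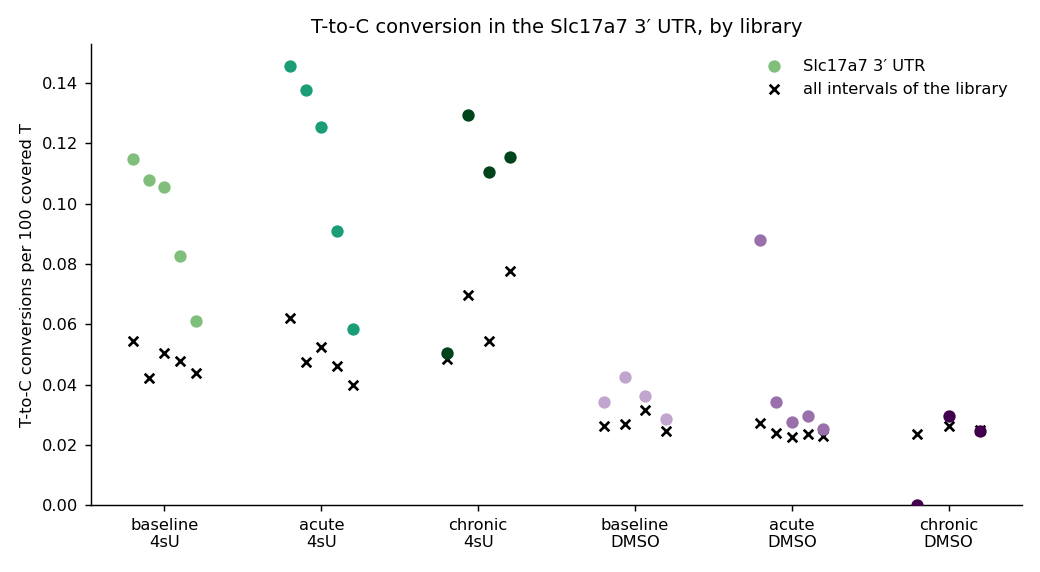
T-to-C conversions per 100 covered T positions in the Slc17a7 3′ UTR interval (filled points) and over all intervals of the same library (crosses), for the 26 libraries in 6 groups. The 4sU libraries sit at 0.0505% to 0.146% for Slc17a7 and the DMSO libraries at 0% to 0.0427%, except acute DMSO library 1 at 0.0879%.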

How the data were processed

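The authors deposited exon counts per gene symbol for 26 amygdala libraries in 2 tables, as raw whole numbers. Per the submitters' processing notes, the tools were featureCounts 2.0.1, HISAT2 2.1.0, cutadapt 3.1 and SAMtools 1.9, with no order given, and the build mm10. The sources used here give no strand setting or handling of multiple matches. The tables share 25239 genes and 9 baseline columns, with 0 differing values, and were joined. The authors also deposited, per library and RefSeq 3′ UTR interval, counts of covered T positions, T-to-C conversions and reads (slamdunk 0.4.3, per the file headers), with a conversion rate as a fraction and a CPM column, which were not used. Where a gene had several intervals, the best covered one was kept (19262 genes, 87.6% of covered T positions). The 6 auditory cortex libraries of the series were not analysed here.

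Tests of counts used edgeR 4.0.16 under R 4.3.3 (TMM, filterByExpr with a minimum count of 10, robust quasi-likelihood fits, Benjamini-Hochberg adjustment over all genes tested, threshold 0.05). Each table's 4 groups were fitted together, and all 6 groups for chronic against acute stress. All 9 members passed the filter. Conversions were tested in edgeR with an offset for log covered T, which took genes covered in every library and averaging 2000 or more covered T. For stress effects the 4sU libraries were also scaled to a common overall rate. Log2 CPM used a prior of 0.25. Correlations used group-centred values and 100000 permutations within groups. Exact permutation tests (SciPy 1.17.1) compared ratios. Alternatives were other scaling, no filter, DESeq2 1.42.0, other sets of groups, 3′ UTR reads, a replicate block, other minimum coverage and leaving out each library. The tests were also run on simulated data without libraries that stood apart within a group, and the outcome is not reported here. Python 3.11.15, pandas 2.3.3, numpy 2.4.6 and matplotlib 3.10.9 handled tables and figures.

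The members, gene lists and tests were chosen with earlier results of these data known. Named genes are the 9 members, up to 2 called genes of each other list, and the 6 genes most like Slc17a7 and Slc17a6. No libraries of a group agreed within sampling noise.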

Additional observations from a re-analysis of the deposited data

Results flagged for a closer look

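Of 85 groups of 4 or 5 libraries examined for a value far from the others, 11 were singled out. The chronic DMSO group, with 3 libraries, was not examined. For normally distributed values about 1 in 20 would be singled out. That rate does not hold for percentages from few conversions. Where all other libraries of a group had 0, any 1 nonzero value is singled out. All 11 are conversion percentages, and most rest on few conversions. In 10 the highest library stood apart. For Slc17a7 it was acute DMSO library 1 at 0.0879% (12 conversions), and for Slc17a6 baseline DMSO library 2 at 0.0441%. For Slc30a3 it was baseline DMSO library 2 at 0.0654% and acute DMSO library 3 at 0.867%, the latter from 346 covered positions. For Neurod2 it was acute 4sU library 4 at 0.0685%, and for Neurod6 acute DMSO library 2 at 0.0266%. For Tbr1 it was acute DMSO library 4 at 0.0757% and chronic 4sU library 4 at 0.022%. For Nrn1 it was baseline 4sU library 3 at 0.0438%, and for Fibcd1 acute DMSO library 5 at 0.0526%. The lowest library stood apart for Fibcd1 in acute 4sU library 5, at 0.00888%.

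The effect of chronic stress differed between 4sU and DMSO mice, by the test of the difference itself in edgeR, for Slc17a6 (1.38 on the log2 scale, 4sU minus DMSO, adjusted p = 0.0084) and for Fibcd1 (-2.61, adjusted p = 0.031). The 4sU side of both differences crosses the library division, and the DMSO side does not.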

How the results depend on the processing

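Of 3606 values of single members under alternatives, 3533 kept their side of the threshold, 47 lost a call and 26 gained one. Called values changed sign in 0 cases. The 3533 include 140 that changed sign while uncalled in both settings. With only the 2 groups compared, the count of members called went from 1 to 0 for acute stress in DMSO mice. For 4sU at baseline, where the share of all genes in that fit is not reported here, the count went from 3 to 5. With DESeq2 it went from 0 to 1 for the acute difference between injections, from 0 to 1 for 4sU after chronic stress and from 0 to 2 for chronic against acute DMSO mice. A minimum of 10000 covered T positions took the chronic conversion count from 4 to 2. The share of all genes with that minimum is not reported here. The replicate numbers pair no samples by the check used (0 of 15 pairs of groups had all same-number correlations over 0.1). A fit with the replicate block moved the chronic difference between injections from 2 called members to 1 and no other count by over 1.5 times. The share of all genes with the block is not reported here.

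Leaving out 1 library gave 1 to 2 called members for acute stress in DMSO mice, 0 to 1 for the acute average, 0 to 1 for the acute difference, 1 to 5 for the chronic difference and 0 to 1 for chronic against acute DMSO mice. For conversion it gave 1 to 2 after acute and 2 to 4 after chronic stress. For the acute and chronic differences and for conversion, the shares of all genes in these fits are not reported here. Among all genes, the count called went from 291 to between 45 and 638 for chronic against acute DMSO mice, from 382 to as many as 787 for the acute average and from 22 to between 2 and 48 for 4sU after chronic stress. With only the 2 groups compared, the first and last of these counts were 0. The causes were not tested. Tfap2d levels are limited by its counts, and conversion of members other than Slc17a7 by conversions per library.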
